A study of Mus musculus with 48 samples.

Results

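Airspace macrophages of Siglec-F deficient (KO) mice were compared 21 days after bleomycin with those of naive KO mice, across all expressed genes. The groups compared hold 6 of the 24 libraries of the series, chosen by their genotype and day labels. They are KO day 21 mice 1, 2 and 3 and KO naive mice 1, 2 and 3. All mice were male, all cells were labelled as macrophages from bronchoalveolar lavage, the fluid washed from the airspaces, and each library was made from bulk RNA. The day 21 mice had received bleomycin at 2.5 units/kg into the trachea. The naive mice carry a saline control label and the time point day 0, and whether they were kept for 21 days beside the treated mice is not among the labels. Both groups carry the same Siglec-F deficiency, and no other allele is named. Age is not among the labels, and neither are the background strain and the purity of the lavage cells. The other 18 libraries are KO mice at days 7 and 14 and wild-type (WT) naive, day 7, day 14 and day 21 mice, 3 mice in each group. They serve to place the day 21 KO values. They also share the model, so they enter the filter on low counts, the scaling and the estimate of spread behind every p. The series asks how Siglec-F signalling in these macrophages bears on fibrosis after lung injury.

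Bleomycin damages the alveolar lining and is the standard agent for experimental lung fibrosis in mice. Resident alveolar macrophages live in the airspace, clear surfactant lipid and depend on the cytokine GM-CSF and the receptor PPAR-gamma. After injury many of them are lost, monocytes enter from blood and become macrophages that carry other genes, and these recruited cells are a known source of factors that act on fibroblasts. Siglec-F is a sialic acid binding inhibitory receptor and a standard surface marker of resident alveolar macrophages and eosinophils.

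The deletion was checked first. Siglecf stood at 0.276, 0.169 and 0.577 CPM (each count relative to its library's total, scaled for library composition) in naive KO mice 1, 2 and 3 and at 0.108, 0.122 and 0.259 CPM in day 21 KO mice 1, 2 and 3, an order of mice that is kept in every list of values. In naive WT mice it stood at 403 to 481 CPM, far above every KO library. Library totals ran from 39052898 to 41220913 counts in the naive KO group and from 34662926 to 40082161 in the day 21 KO group. Reads of the ribosomal RNA gene Rn45s took 2.87% to 3.44% and 2.95% to 3.54% of the counts. The 3 naive mice lay close together and the 3 day 21 mice did not. On the first principal component over all 24 libraries, which holds 57.5% of the variance, the naive KO mice sat between -58.1 and -54 and the day 21 KO mice at -20.4, 29.1 and 18. Day 21 mouse 1 was the one nearest to the naive mice for 82% of the genes that rose and 78.5% of those that fell, and in 38 of 45 gene lists, so results are given for each mouse and with it left out where that matters. As a check for a library deposited more than once, counts of 2 mice were compared, and they differed by 65.1 to 216.1 chi-square units per degree of freedom between day 21 mice and by 13.4 to 25.49 between naive mice.

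Of 12634 genes tested, 2765 were called at an adjusted p below 0.05 in edgeR's quasi-likelihood test, which is 21.9% of all genes tested. Of these, 1895 were higher at day 21 (15% of all genes tested) and 870 were lower (6.89%). Counts in the gene lists below are to be read beside these shares, and a list near them says little about its members. They cover only members that passed the filter on low counts, which a gene can pass through the bleomycin groups alone. For genes near 0 in naive mice the share that rose is thus partly set by the filter. The rises were larger than the falls. The median log2 fold change was 1.51 among the genes that rose and -0.57 among those that fell, against 0.01 over all genes tested. By the fitted values 515 genes rose at least 16-fold, while only 6 genes fell at least 16-fold. Of the genes that rose, 229 had no count in any naive KO mouse, against 0 of those that fell. Fitted values of genes with no naive count are not measured folds, and these genes were not left out of the 515 or the median of 1.51. The fall count depended on single mice: without day 21 mouse 1 it was 1523, without mouse 2 it was 381 and without mouse 3 it was 377, and leaving out a naive mouse gave 480 to 530. A model of the 6 libraries alone, with fewer degrees of freedom, called 1021 genes higher and 370 lower.

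**Figure D1:**
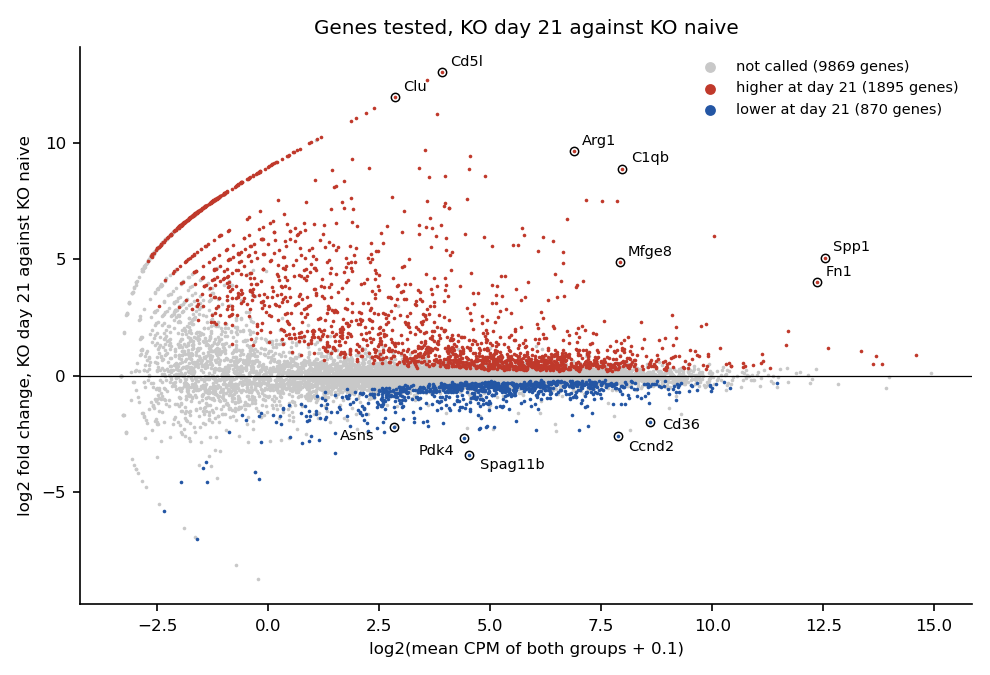
Log2 fold change of KO day 21 against KO naive (y axis) against log2 of the mean CPM of both groups plus 0.1 (x axis) for the 12634 genes tested, 1 point a gene, with called genes in colour and 12 genes circled. The 1895 genes that rose spread far above 0 and most of the 870 that fell stay near it, and the curved upper edge holds genes with no count in naive mice, whose fitted value is not a measured fold.

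The steepest rises came from genes that were silent or nearly silent in naive KO macrophages. Cd5l, a secreted scavenger-domain protein of tissue macrophages, had no count in the naive mice and stood at 0.271, 82.9 and 6.54 CPM at day 21, at least 1280-fold higher when the naive group is set to 3 counts in all (adjusted p = 0.0014). Day 21 mouse 2 alone carried most of that level. Clu, which encodes the extracellular chaperone clusterin, went from no count to 5.41, 3.45 and 33.6 CPM, at least 607-fold higher (adjusted p = 0.00048), with mouse 3 the highest. Cd38, an enzyme that consumes NAD on the cell surface, went from no count to 0.839, 18.2 and 7.99 CPM, at least 385-fold higher (adjusted p = 0.0002). Nnmt, which methylates nicotinamide, went from no count to 1.62, 13.5 and 6.18 CPM, at least 303-fold higher (adjusted p = 3.4e-06). In both genes mouse 1 was lowest and still above every naive mouse. Tmeff1, a transmembrane protein with follistatin-like domains, and Ednra, an endothelin receptor, were at least 440-fold and at least 325-fold higher by the same bound, again with mouse 2 highest.

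Rai14, an actin-binding protein, rose in all 3 day 21 mice, least in mouse 1. It stood at 0.046, 0.0242 and 0 CPM in naive mice and at 9.07, 28.9 and 30.2 CPM at day 21 (log2 fold change 9.72 ± 0.71, SE; adjusted p = 1.8e-08). Ldhb, the heart-type subunit of lactate dehydrogenase, went from 0.069, 0.121 and 0 CPM to 9.23, 80.3 and 49.6 CPM (9.46 ± 0.98; adjusted p = 8.2e-07). Arg1, which splits arginine into ornithine and urea, went from 0.322, 0.145 and 0.392 CPM to 9.8, 499 and 195 CPM (9.65 ± 1.14; adjusted p = 3.8e-06). All 3 genes were free of overlap between the groups, and the spread among day 21 mice was widest for Arg1. The other members of the 12 were Hbb-b1 and Hba-a1, the globins of red cells, and Tcf7, a factor best known from T cells, which rose from 0.023, 0 and 0 CPM to 1.19, 15.3 and 5.12 CPM. Each globin has a near-identical copy with which reads could have been divided. Red cell markers, Hba-a1 among them, summed to between 0 and 0.0231 CPM in naive mice and to 15.1, 63.6 and 28.1 CPM at day 21, and T and NK cell markers to between 1.45 and 3.16 CPM and to 30.6, 137 and 53.5 CPM. How much these cells add to any rise reported here was not tested.

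The 12 steepest falls were smaller in size, and each was least deep in mouse 1. Ccnd2, a D-type cyclin, fell from 418, 418 and 379 CPM to 146, 22.9 and 28.7 CPM (log2 fold change -2.62 ± 0.56; adjusted p = 0.0019). Spag11b, a beta-defensin-like gene, fell from 51.5, 31.9 and 42.4 CPM to 10.6, 0.366 and 0.879 CPM (-3.40 ± 0.78; adjusted p = 0.0035). Pdk4, a kinase that turns off pyruvate dehydrogenase when fat is burned, fell from 30.3, 45.1 and 34.8 CPM to 11.8, 0.855 and 4.32 CPM (-2.69 ± 0.60; adjusted p = 0.0029). No day 21 mouse reached the naive range in any of them. Gal, encoding the peptide galanin, fell from 47.2, 62.8 and 58 CPM to 23.7, 6.84 and 5.61 CPM (-2.22 ± 0.44; adjusted p = 0.001). Slc15a2, a peptide transporter, fell from 8.09, 10.6 and 7.96 CPM to 2.68, 1.99 and 0.905 CPM (-2.26 ± 0.56; adjusted p = 0.0059). Cldn1, a tight junction protein, went the same way (-2.22 ± 0.55; adjusted p = 0.0058). Acot1 and Acaa1b, enzymes of fatty acid metabolism, and Cdc42ep5, a Cdc42 effector, lost their calls without mouse 2 or without mouse 3. In the model of the 6 libraries alone Ccnd2, Spag11b, Pdk4 and Cldn1 no longer passed the test.

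**Figure D2:**
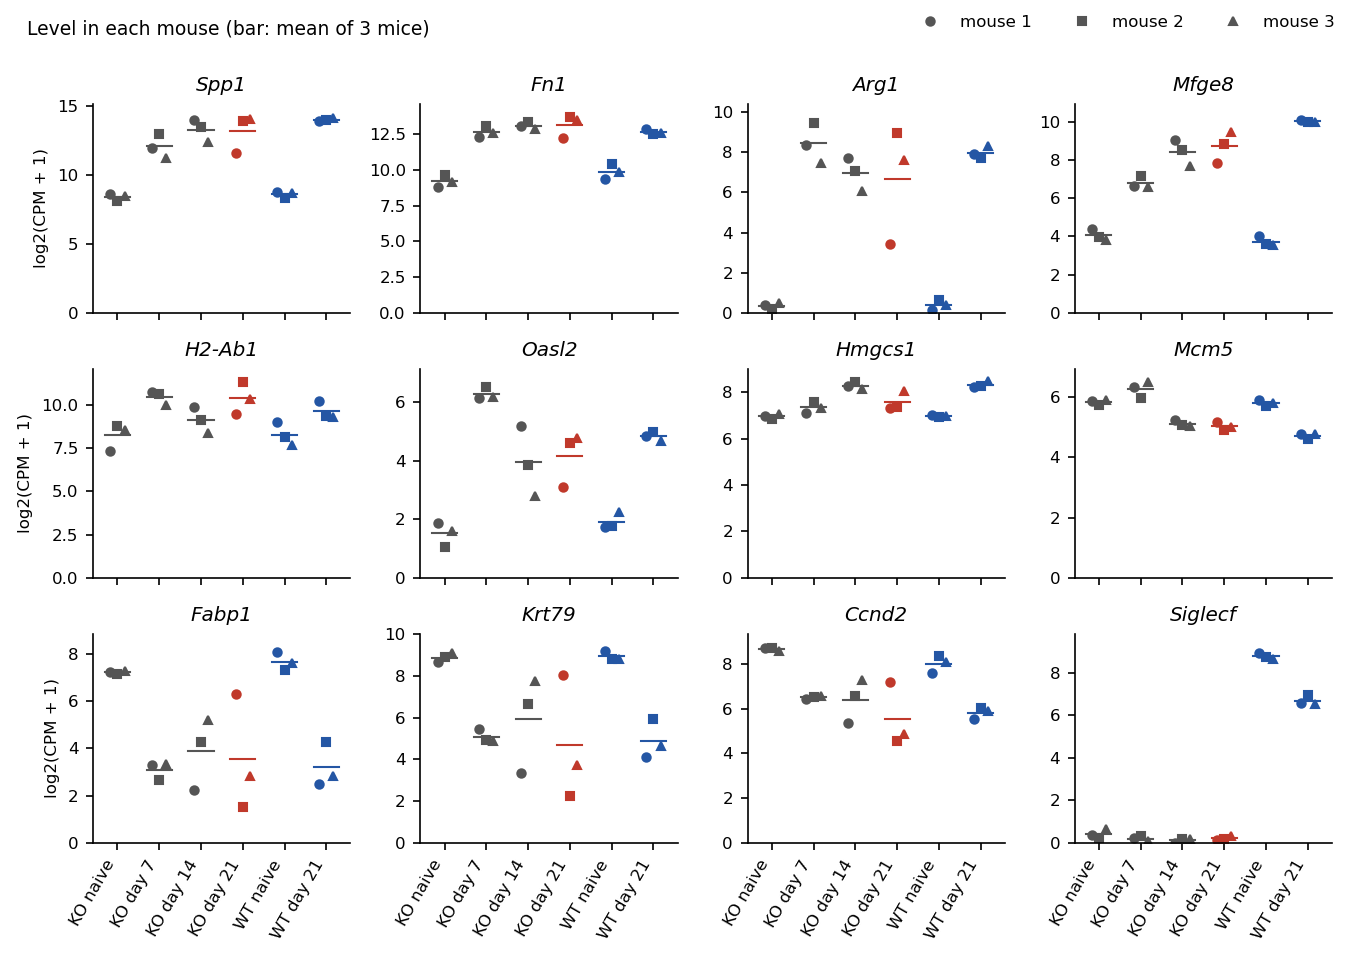
Level of 12 genes as log2(CPM + 1) (y axis) in each mouse of the KO naive, day 7, day 14 and day 21 groups and the WT naive and day 21 groups (x axis), with symbols for mouse 1, 2 and 3 and a bar at the mean. Day 21 KO mice are in red: mouse 1 sits between the naive mice and the other two for Spp1, Arg1, Fabp1, Krt79 and Ccnd2, while Hmgcs1 is highest in mouse 3 and Mcm5 is alike in all 3.

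Of 33 genes of resident alveolar macrophages tested, 4 rose and 1 fell, where 15% of all genes tested rose and 6.89% fell. The median log2 fold change of the 33 was -0.17. The mean level of the list, as log2(CPM + 1), differed from the naive mean by -0.12, -0.81 and -0.59 in day 21 mice 1, 2 and 3, with the naive mice between -0.03 and 0.03 of it. Hpgd, which degrades prostaglandins, rose from 0.759, 2.13 and 0.669 CPM to 11.5, 14.8 and 18.3 CPM (3.65 ± 0.44; adjusted p = 4e-06). Csf2ra and Csf2rb, the subunits of the GM-CSF receptor, rose by 0.54 ± 0.12 (adjusted p = 0.0024) and 0.45 ± 0.13 (adjusted p = 0.021) on the log2 scale. Ctsk, the protease cathepsin K, also passed (0.92 ± 0.27; adjusted p = 0.018) although mouse 1 lay inside the naive range. The member that fell was Cd2 (-1.24), named after its value was seen. The best known markers were split among mice. Fabp1, a fatty acid binding protein, stood at 150, 143 and 157 CPM in naive mice and 78.3, 1.83 and 6.21 CPM at day 21 (-2.38 ± 0.91; adjusted p = 0.066). Krt79, a keratin of these macrophages, stood at 397, 478 and 538 CPM against 261, 3.79 and 12.4 CPM (-2.35 ± 1.07; adjusted p = 0.12). For both genes every day 21 mouse was below every naive mouse, mouse 1 least and mice 2 and 3 by far more. Pparg, the receptor that sets their identity, stood at 166, 172 and 176 CPM against 182, 117 and 144 CPM (-0.21 ± 0.19; adjusted p = 0.47), and Chil3, a secreted lectin, at 19000, 18300 and 17900 CPM against 15600, 14400 and 7950 CPM (-0.54 ± 0.26; adjusted p = 0.15). Without day 21 mouse 1, 9 of the 33 were called lower, against 1 without mouse 2 and 0 without mouse 3. The 4 that rose were 2 without day 21 mouse 2 and without naive mouse 2 or 3, and 1 in the model of the 6 libraries alone. In bulk RNA fewer cells of a type and less RNA per cell cannot be told apart, here or in any list that follows.

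Genes of recruited and interstitial macrophages rose in every day 21 mouse. Of 20 recruited macrophage genes tested, 18 rose and none fell (median log2 fold change 3.66). Of 17 interstitial macrophage genes only 13 passed the filter on low counts, and of these 12 rose and none fell (median 4.42). That share is partly set by the filter and is no test. Trem2, a lipid-sensing receptor, was already high in naive mice at 54.9, 45.1 and 49.3 CPM and reached 140, 256 and 253 CPM (2.12 ± 0.24; adjusted p = 2e-06). No day 21 mouse overlapped the naive range for Trem2, and mouse 1 was lowest. F13a1, the A chain of coagulation factor XIII, went from 0.138, 0.169 and 0.231 CPM to 14.9, 57 and 21.5 CPM (7.41 ± 0.58; adjusted p = 3e-08). Ccr2 and Cx3cr1, receptors that mark monocytes and their progeny, rose by 3.14 ± 0.37 (adjusted p = 3.5e-06) and 4.71 ± 0.55 (adjusted p = 3.2e-06). Ly6c2, a marker of fresh inflammatory monocytes, rose to low levels, from 0 to 0.0692 CPM in naive mice to 0.65, 6.29 and 1.68 CPM at day 21 (6.06 ± 1.10; adjusted p = 0.00061).

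The group also held the genes known from macrophages of fibrotic lung. Of 23 tested, 15 rose and 1 fell, with a median log2 fold change of 2.08 (1.56 with genes that had no naive count set to their bound). Spp1, the gene of osteopontin, a secreted protein of matrix and bone, went from 391, 277 and 356 CPM to 2990, 14900 and 16600 CPM (5.07 ± 0.53; adjusted p = 9.4e-07). Mfge8, a bridge between dying cells and phagocytes, went from 19.9, 14.5 and 13.1 CPM to 230, 457 and 712 CPM (4.88 ± 0.36; adjusted p = 2.3e-08). Mmp12, the macrophage elastase, went from 12.3, 8.14 and 11.9 CPM to 213, 109 and 227 CPM (4.09 ± 0.47; adjusted p = 2.8e-06). Mouse 1 was lowest for Spp1 and Mfge8 but not for Mmp12. The member that fell was Cd36, described below with lipid uptake, and without day 21 mouse 1 the test called 3 members lower. Gpnmb, a glycoprotein of lipid-laden macrophages, stood at 949, 753 and 729 CPM against 772, 1530 and 1130 CPM, groups that overlapped (0.50 ± 0.19; adjusted p = 0.06).

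Of 37 genes of matrix proteins and matrix enzymes 33 passed the filter, and of these 18 rose and 1 fell. Fn1, fibronectin, went from 440, 805 and 576 CPM to 4780, 13300 and 11600 CPM (4.03 ± 0.38; adjusted p = 3.1e-07). Ecm1, an extracellular matrix glycoprotein, went from 16.6, 14.8 and 14.8 CPM to 190, 386 and 195 CPM (4.06 ± 0.30; adjusted p = 1.8e-08). Mmp14, a membrane-bound collagenase, went from 2.25, 1.33 and 2.24 CPM to 51.2, 304 and 270 CPM (6.74 ± 0.66; adjusted p = 4.7e-07). Each of these genes was more than an order of magnitude above naive in mice 2 and 3 and clearly above it in mouse 1. Adam8, a membrane metalloproteinase, rose by 7.59 ± 0.73 (adjusted p = 3.6e-07).

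Among 23 growth factor and TGF-beta family genes 12 rose and 1, Vegfb (-0.45; named after its value was seen), fell, a call lost without day 21 mouse 2 and without naive mouse 1. Hgf, the hepatocyte growth factor that acts on epithelium, went from 6.62, 8.55 and 7.66 CPM to 26.3, 54.1 and 37.9 CPM (2.37 ± 0.31; adjusted p = 1.1e-05). Thbs1, thrombospondin-1, went from 0.161, 0.0483 and 0.0231 CPM to 1.79, 76.8 and 14.6 CPM (8.57 ± 1.19; adjusted p = 2.6e-05). Pdgfb, a growth factor for fibroblasts, went from 2.55, 5.12 and 3.21 CPM to 9.15, 11.2 and 15.9 CPM (1.74 ± 0.41; adjusted p = 0.0042). No day 21 value of these 3 genes fell within the naive range, and mouse 1 was lowest for each. Igf1, the insulin-like growth factor, stood at 76.4, 38.4 and 44.1 CPM against 77.1, 261 and 230 CPM (1.84 ± 0.39; adjusted p = 0.002), with mouse 1 barely above the highest naive mouse, and it lost its call in the model of the 6 libraries alone. Smad3, a carrier of the TGF-beta signal, rose by 4.64 ± 0.57 (adjusted p = 6.1e-06). Tgfb1 itself stood at 642, 623 and 642 CPM against 616, 596 and 572 CPM (-0.10 ± 0.07; adjusted p = 0.38).

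**Figure D3:**
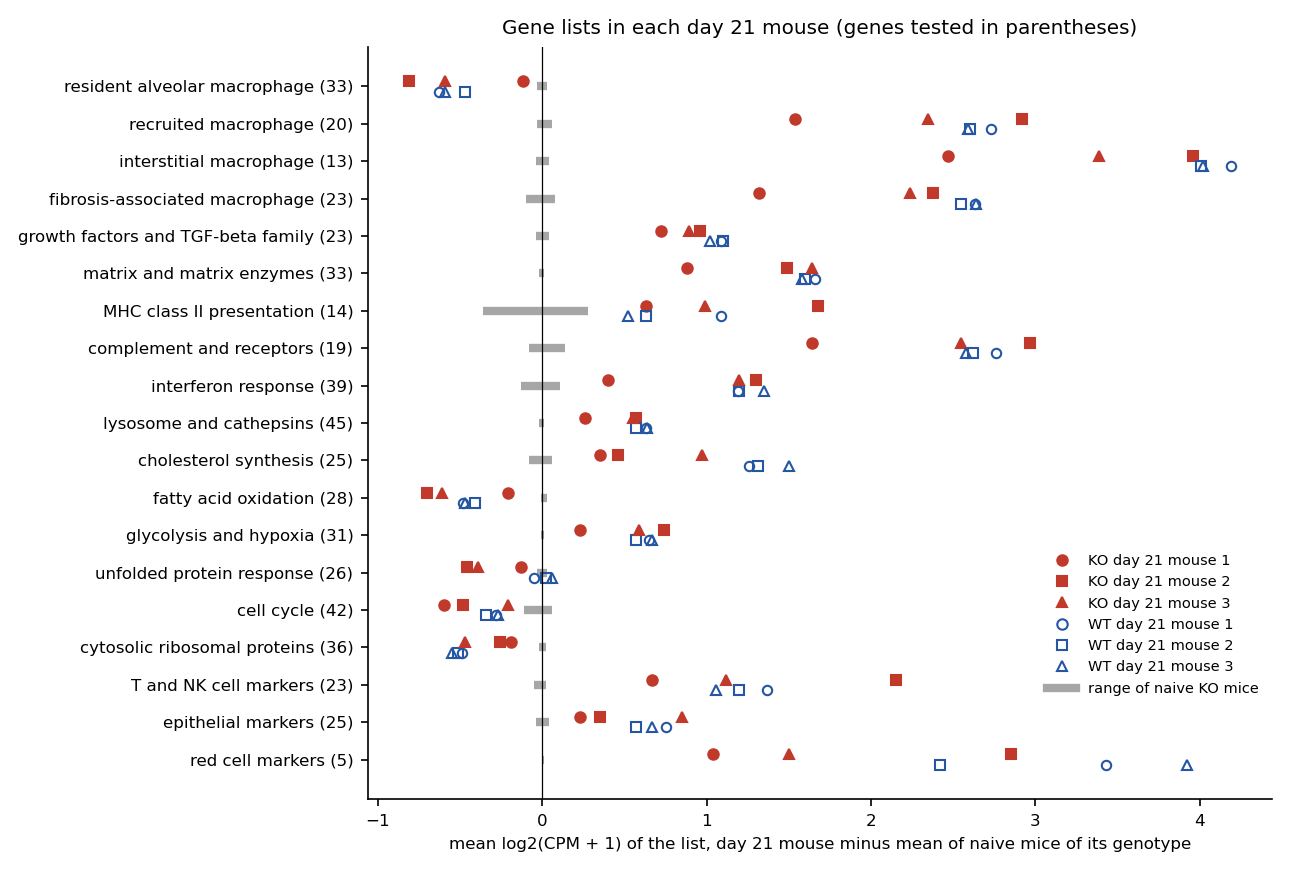
Mean log2(CPM + 1) over the tested members of 19 gene lists, as the difference between each day 21 mouse and the mean of the naive mice of its genotype (x axis), with KO mice filled red, WT mice open blue and the range of the naive KO mice as a grey bar. KO mouse 1 is nearest to 0 for most lists, and the 3 KO mice all lie below the WT mice for cholesterol synthesis.

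Alternative activation, the state that IL-4 and IL-13 induce, was mixed. Of 19 genes tested, 7 rose (4 in limma-voom) and 1, the chemokine Ccl22 (-0.72, named after its value was seen), fell. The call of Ccl22 was lost without day 21 mouse 2 or 3, without any 1 naive mouse and with the mouse number added to the model. Il4ra, the IL-4 receptor chain, rose from 159, 158 and 166 CPM to 245, 394 and 384 CPM (1.08 ± 0.14; adjusted p = 1.1e-05), and Socs3, a brake on cytokine signalling, from 7.79, 4.9 and 7.27 CPM to 29.7, 137 and 97.4 CPM (3.72 ± 0.40; adjusted p = 1.1e-06). Retnla, a classic IL-4 target, was near 0 in both groups, at 0.115, 0 and 0 CPM against 0, 0.0611 and 0.0776 CPM. In arginine and polyamine metabolism 6 of 17 genes rose and 4 fell. Slc7a1, the housekeeping carrier of arginine, fell from 40.1, 41.4 and 37.8 CPM to 17.6, 19.4 and 13.7 CPM (-1.24 ± 0.13; adjusted p = 1.2e-06), a fall that was alike in all 3 mice. Smox, spermine oxidase, rose by 1.58 ± 0.20 (adjusted p = 6.1e-06), and Gatm, the first enzyme of creatine synthesis, by 3.02 ± 0.37 (adjusted p = 6.5e-06). The others that fell, Srm, Oat and Aldh18a1, by -0.40, -0.34 and -0.66, were named after their values were seen. The count of 4 that fell dropped to 2 without day 21 mouse 2 or 3 and without naive mouse 1 or 3.

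Genes of cholesterol synthesis rose together by small amounts. Of 25 tested, 19 rose and none fell, with a median log2 fold change of 0.64. These genes are driven by SREBP2, a factor that binds sterol regulatory elements when membrane cholesterol is low. Sqle, the epoxidase that makes the precursor of lanosterol, went from 56.9, 56.5 and 67.6 CPM to 81, 102 and 147 CPM (0.87 ± 0.18; adjusted p = 0.0014). Hmgcs1, an early synthase of the pathway, went from 126, 115 and 134 CPM to 157, 165 and 266 CPM (0.65 ± 0.16; adjusted p = 0.006). Mouse 3 was the highest in both, and all 3 day 21 mice lay above the naive mice. Without mouse 3 the count fell from 19 to 8 and Hmgcs1 lost its call, without naive mouse 2 the count was 12, and the model of the 6 libraries alone called 6.

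One of the printed promoters comes from this list, to show the element in its place. The 250 bases before the RefSeq start of each gene were searched on both strands for TCACNCCAC, the core of a sterol regulatory element (N is any base), in the mouse build GRCm38.p6. It was found in 280 of 27025 promoters (1.04%) and in 1 of the 18 list promoters held by the table, that of Hmgcs1. The stretch chr13:119690194-119690242 on the plus strand runs from 157 to 109 bases before the Hmgcs1 start, with the match in capitals.

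Hmgcs1: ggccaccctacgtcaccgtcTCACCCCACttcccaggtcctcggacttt

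Cholesterol export and the targets of the oxysterol receptor LXR were divided, with 8 of 20 genes higher and 2 lower, Cd36 and the lipid droplet gene Plin2 (-0.56; named after its value was seen). Apoe, the lipid carrier, went from 27.6, 52.8 and 18 CPM to 958, 3430 and 1860 CPM (5.99 ± 0.70; adjusted p = 3.2e-06). Msr1, a scavenger receptor for modified lipoprotein, went from 24.4, 7.68 and 14.5 CPM to 106, 322 and 269 CPM (3.90 ± 0.41; adjusted p = 9.2e-07). Cd36, which takes up fatty acids, moved the other way, from 594, 638 and 621 CPM to 276, 99.6 and 83.1 CPM (-2.02 ± 0.34; adjusted p = 0.00024). None of the 3 overlapped between groups, and mouse 1 had the smallest change in each. The 8 that rose became 5 without day 21 mouse 2, without naive mouse 1, without naive mouse 3 and in the model of the 6 libraries alone, and the 2 that fell became 4 without day 21 mouse 1.

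In fatty acid oxidation 9 of 28 genes fell and 1, Echs1 (0.39; named after its value was seen), rose, with a median log2 fold change of -0.25. The rise of Echs1 was lost without day 21 mouse 2 or 3 and without any naive mouse. Hsd17b4, an enzyme of peroxisomal oxidation, fell from 388, 425 and 410 CPM to 335, 149 and 185 CPM (-0.87 ± 0.21; adjusted p = 0.0049), and Acot2, a mitochondrial thioesterase, from 41.3, 44.8 and 42.1 CPM to 29.6, 15.6 and 15.1 CPM (-1.09 ± 0.20; adjusted p = 0.00044). In both genes day 21 mouse 1 lay nearest to the naive mice, which are other animals, and mice 2 and 3 lay far below them. The count was 14 without mouse 1, 3 without mouse 2, 3 without mouse 3, 5 without naive mouse 1 or 2, and 1 in the model of the 6 libraries alone. Acot1 and Acot2 are close copies, and reads could have been divided between them. Of 36 oxidative phosphorylation genes 3 rose and 3 fell, all by small amounts, where 15% of all genes tested rose and 6.89% fell. Those that rose were Sdhb (0.45) and, named after their values were seen, Ndufa1 (0.40) and Sdhd (0.35). Those that fell were Ndufs1, a subunit of complex I (-0.33 ± 0.07; adjusted p = 0.0029), Ndufa4 (-0.37) and Uqcrc2 (-0.34). The 3 that rose were 0 without day 21 mouse 2, without naive mouse 3 and in the model of the 6 libraries alone, and 1 without day 21 mouse 3 or naive mouse 1 or 2. The 3 that fell were 1 without day 21 mouse 2 or 3 and without naive mouse 1 or 3. Of 31 glycolysis and hypoxia genes 12 rose and none fell, 7 in the model of the 6 libraries alone. Slc2a1, the glucose carrier GLUT1, rose from 32.3, 32.1 and 35.1 CPM to 48, 94 and 88.8 CPM (1.21 ± 0.18; adjusted p = 4.7e-05), and Hk1, hexokinase 1, by 0.85 ± 0.16 (adjusted p = 0.00068).

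Interferon response genes were raised at day 21. Of 39 tested, 25 rose and none fell, with a median log2 fold change of 1.62. Type I and type II interferons act through STAT and IRF factors on promoters with an interferon-stimulated response element. Oasl2, an antiviral synthetase-like protein, went from 2.67, 1.09 and 2.03 CPM to 7.63, 23.4 and 26.5 CPM (3.31 ± 0.52; adjusted p = 0.0001). Ifit3, which binds foreign RNA with its relatives, went from 3.01, 2.54 and 2.91 CPM to 4.9, 10.5 and 11.9 CPM (1.69 ± 0.41; adjusted p = 0.0055). Gbp3, a guanylate binding protein, went from 4.53, 5.56 and 4.85 CPM to 9.37, 26.3 and 19.4 CPM (1.88 ± 0.33; adjusted p = 0.0003). Mouse 1 was raised least and still lay above the naive range in each. Ifit3 has a close copy, Ifit3b, with which reads could have been divided. Irf9 rose by 1.12 ± 0.18 (adjusted p = 0.00011). In the model of the 6 libraries alone 13 were called.

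The promoters of Ifit3 and Gbp3 are printed as examples of the element, since most promoters of this list hold its core. The core GAAANNGAA, read as TTCNNTTTC on the other strand, was found in 17 of the 28 list promoters in the table (60.7%) and in 1934 of 27025 promoters (7.16%). Matches may overlap. The Ifit3 stretch is chr19:34583354-34583455 and the Gbp3 stretch chr3:142559980-142560034, both on the plus strand in GRCm38.p6, and they lie 175 to 74 and 64 to 10 bases before the RefSeq start. Capitals mark the core, which reads TTCNNTTTC in both.

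Ifit3: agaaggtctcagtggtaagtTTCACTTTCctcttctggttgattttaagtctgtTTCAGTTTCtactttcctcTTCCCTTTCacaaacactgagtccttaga

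Gbp3: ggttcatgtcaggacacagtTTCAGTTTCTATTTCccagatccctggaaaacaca

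Genes of antigen presentation rose at day 21. Of 14 MHC class II genes 11 rose and none fell (median log2 fold change 1.76), and of 20 MHC class I genes 9 rose and none fell (median 0.37). H2-Ab1, a class II beta chain, went from 163, 443 and 380 CPM to 705, 2550 and 1320 CPM (2.22 ± 0.49; adjusted p = 0.0024). Cd74, the invariant chain, went from 765, 1890 and 1560 CPM to 3280, 7430 and 5060 CPM (1.90 ± 0.40; adjusted p = 0.0018). Naive mouse 1 was the lowest of its group in both, day 21 mouse 2 was the highest, and the groups did not overlap. Ctss, the protease that trims the invariant chain, went from 3540, 4010 and 3800 CPM to 6800, 10100 and 8900 CPM (1.19 ± 0.16; adjusted p = 1.4e-05). Summed dendritic cell markers, which also bear class II, stood at 40.4 to 46.1 CPM in naive mice and at 43.5, 110 and 51.2 CPM at day 21, with 9 of 18 higher and 2 lower (Ccl22 and Batf3, named after their values were seen), and their part in the class II rise was not tested. The 2 dendritic cell markers that fell were 1 without day 21 mouse 2 or 3 and without any 1 naive mouse. The model of the 6 libraries alone called 6 class II genes. On the class I side B2m, the shared light chain, rose from 1710, 1760 and 1880 CPM to 2440, 2830 and 3020 CPM (0.63 ± 0.14; adjusted p = 0.0031), and Nlrc5, the activator of these genes, by 2.26 ± 0.39 (adjusted p = 0.00026).

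Complement genes rose by large amounts. Of 19 tested, 13 rose and none fell (median log2 fold change 3.23). C1qb, a chain of the first component that also tags dying cells, went from 1.4, 1.09 and 0.646 CPM to 112, 894 and 501 CPM (8.90 ± 0.76; adjusted p = 9.8e-08). C3ar1, the receptor for C3a, went from 2.55, 1.06 and 1.13 CPM to 41.4, 175 and 102 CPM (6.06 ± 0.57; adjusted p = 3.1e-07). Mouse 2 was the highest and mouse 1 the lowest each time, all far above naive.

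Chemokines were less uniform. Of 22 tested, 7 rose and 2, Ccl22 and Cxcl3 (-3.31), fell, both named after their values were seen. The 2 that fell were 1 without day 21 mouse 2 or 3 and without any 1 naive mouse. Cxcl16, a membrane-bound chemokine and lipoprotein receptor, went from 5.82, 6.88 and 6.65 CPM to 41.1, 88.4 and 81 CPM (3.44 ± 0.31; adjusted p = 2e-07), and Ccl9 from 40.8, 23.3 and 30.7 CPM to 108, 158 and 152 CPM (2.14 ± 0.33; adjusted p = 9.3e-05). Ccl5, also abundant in T and NK cells, went from 0.299, 0.0966 and 0.3 CPM to 1.71, 8.37 and 2.51 CPM (4.15 ± 0.73; adjusted p = 0.00035), with mouse 2 highest as for the T and NK cell markers. Without mouse 2 the count of 7 became 4. Of 15 chemokine receptors 8 rose and 1, Cxcr1 (-2.19, named after its value was seen), fell. The count lower was 4 without day 21 mouse 1. It was 0 without day 21 mouse 2 or 3 and in the model of the 6 libraries alone. Among those that rose was Cmklr1, the receptor for chemerin, from 0.161, 0.314 and 0.185 CPM to 13, 54.9 and 31.9 CPM (7.23 ± 0.68; adjusted p = 3e-07). Of 23 inflammatory cytokine and NF-kB genes 7 rose and 1, Nlrp3 (-0.71; named after its value was seen), fell. Il1b, the precursor of interleukin-1 beta, was highest in mouse 1, at 3.61, 2.83 and 9.14 CPM in naive mice and 87.9, 22.9 and 21.1 CPM at day 21 (3.08 ± 0.55; adjusted p = 0.00035). The count of 7 became 4 without naive mouse 2 and 3 in the model of the 6 libraries alone.

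Receptors that sense microbes and antibody rose and none of the tested members fell, 12 of 23 pattern recognition receptors and 13 of 25 Fc and inhibitory receptors. Without day 21 mouse 1, 3 and 2 of them were called lower. Tlr1 rose by 4.82 ± 0.58 (adjusted p = 4.3e-06) and Tlr9, the sensor of CpG DNA, by 3.30 ± 0.41 (adjusted p = 6e-06), both from less than 1 CPM. Clec4n, the receptor dectin-2, was already abundant and rose from 419, 449 and 447 CPM to 676, 831 and 852 CPM (0.84 ± 0.12; adjusted p = 4.7e-05). Cd200r1, an inhibitory receptor, rose from 53.8, 59.7 and 66.6 CPM to 99.3, 115 and 103 CPM (0.82 ± 0.11; adjusted p = 1e-05), to nearly the same level in all 3 mice. The model of the 6 libraries alone called 7 Fc and inhibitory receptors. In the Siglec family, the relatives of the deleted gene, 1 of 8 rose: Siglec1, a macrophage receptor that holds sialylated particles, went from 600, 557 and 555 CPM to 766, 1220 and 1160 CPM (0.88 ± 0.18; adjusted p = 0.0012). Siglece, the other common inhibitory Siglec of mouse myeloid cells, stood at 49.3, 68.3 and 61.2 CPM against 75.2, 14.7 and 29.2 CPM (-0.58 ± 0.36; adjusted p = 0.27), above naive in mouse 1 and below it in mice 2 and 3. Without mouse 1, 3 members of the family were called lower. Of 12 TREM and DAP12 genes Trem2, Treml2 (1.92) and Clec5a (0.73) rose and Treml4 (-1.37; adjusted p = 0.021) fell. The call of Treml4 was lost without day 21 mouse 2 or 3, without naive mouse 3 and in the model of the 6 libraries alone.

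Lysosomal genes shifted upward by modest amounts. Of 45 tested, 25 rose and none fell, with a median log2 fold change of 0.37. Acp5, tartrate-resistant acid phosphatase, rose from 296, 197 and 235 CPM to 444, 843 and 927 CPM (1.60 ± 0.21; adjusted p = 1.4e-05). Man2b1, lysosomal alpha-mannosidase, rose from 714, 712 and 714 CPM to 1150, 2070 and 1620 CPM (1.18 ± 0.16; adjusted p = 1.7e-05). The naive mice lay within a few CPM of each other for Man2b1, and each day 21 mouse stood well above them. Among 21 genes of the MiT/TFE factors and autophagy 5 rose and 1 fell. Rragd, a GTPase on the lysosome, rose by 2.72 ± 0.35 (adjusted p = 1.1e-05), and Sqstm1, the autophagy receptor p62, fell from 752, 752 and 776 CPM to 617, 401 and 377 CPM (-0.71 ± 0.15; adjusted p = 0.0019), a call lost in the model of the 6 libraries alone. The others that rose were Wipi1 and Fnip2 and, named after their values were seen, Tfe3 and Rragc. The count of 5 was 2 to 3 without day 21 mouse 2 or 3 or any naive mouse, and 1 in the model of the 6 libraries alone. Among 25 genes for the uptake of dying cells and modified lipoproteins 11 rose and 2, Cd36 and Anxa5 (-0.34; named after its value was seen), fell, 7 higher in that model. Among them were Stab1, a clearance receptor, up by 4.68 ± 0.63 (adjusted p = 1.7e-05) and Itgb5, an integrin that binds Mfge8, from 289, 276 and 278 CPM to 498, 557 and 892 CPM (1.21 ± 0.16; adjusted p = 2e-05).

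A group of genes of the amino acid and unfolded protein responses fell. Of 26 tested, 6 fell and none rose, with a median log2 fold change of -0.21. Atf4, the factor that drives the amino acid response, fell from 102, 104 and 102 CPM to 63.6, 57 and 54.9 CPM (-0.81 ± 0.16; adjusted p = 0.00088). Its textbook targets Asns, asparagine synthetase, and Trib3, a pseudokinase, fell from 9.91, 13.3 and 11.6 CPM to 3.95, 1.59 and 1.84 CPM (-2.24 ± 0.28; adjusted p = 8.2e-06) and from 9.52, 9.71 and 9.21 CPM to 2.98, 2.99 and 2.15 CPM (-1.81 ± 0.31; adjusted p = 0.00029). No day 21 mouse reached the naive range of these 3 genes, and for Trib3 mouse 1 was as low as mouse 2. Ddit3, the stress factor CHOP, fell from 8.16, 7.85 and 8.05 CPM to 5.41, 4.09 and 4.6 CPM (-0.77 ± 0.19; adjusted p = 0.0059). In WT mice Trib3 stood at 4.58, 5.76 and 3.8 CPM when naive and 4.56, 4.5 and 5.29 CPM at day 21, and the difference between the responses missed the threshold (-1.83 ± 0.44; adjusted p = 0.078). The count of 6 that fell became 10 without day 21 mouse 1. It was 4 without day 21 mouse 2 or 3, without naive mouse 1 or 3 and in the model of the 6 libraries alone.

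Of 29 immediate-early and heat shock genes 4 rose and 4 fell, where 15% of all genes tested rose and 6.89% fell. Hspa1a, an inducible chaperone of the HSP70 family, fell from 53.2, 38.8 and 41.2 CPM to 17.2, 5.96 and 3.72 CPM (-2.31 ± 0.47; adjusted p = 0.0013), and Hspa1b, its near-identical neighbour with which it can share reads, by 2.24 ± 0.53 (adjusted p = 0.0043). Hsp90aa1 fell from 313, 304 and 336 CPM to 245, 131 and 166 CPM (-0.81 ± 0.18; adjusted p = 0.003). Junb, an AP-1 subunit, rose from 63.3, 67.7 and 79.2 CPM to 142, 129 and 92.5 CPM (0.79 ± 0.16; adjusted p = 0.0012). Hspd1 (-0.45) also fell and Egr1 (1.45), Zfp36 (0.50) and Hspb1 (3.44) also rose, all named after their values were seen. The 4 that fell were 7 without mouse 1 and 1 in the model of the 6 libraries alone, and the 4 that rose were 2 without mouse 3. Of 25 p53 and DNA damage genes 6 rose and 3, Trp53 (-0.33), Perp (-0.78) and Gdf15 (-1.06), fell, named after their values were seen. The 3 that fell were 0 without day 21 mouse 3 and 1 without naive mouse 1 or 3. Trp53inp1, a p53 target, rose to similar levels in every mouse, from 22.8, 20 and 22.4 CPM to 48.1, 43.7 and 50 CPM (1.12 ± 0.13; adjusted p = 4.1e-06). Of 30 iron and antioxidant genes 5 rose and 4 fell, with the rises near the 15% share of all genes tested. Among those that fell were Mt1 and Mt2, the metallothioneins, by 0.95 ± 0.20 (adjusted p = 0.0014) and 1.70 ± 0.38 (adjusted p = 0.0029). Txnrd1 (-0.43) and Slc7a11 (-0.85) fell too, and Gpx3 (3.84), Slc40a1 (1.37), Fth1 (0.48), Ftl1 (0.49) and Slc11a1 (1.28) rose; all of these but Txnrd1 and Gpx3 were named after their values were seen. The 5 that rose were 1 without day 21 mouse 2, 3 without mouse 3 and in the model of the 6 libraries alone, and 2 to 3 without a naive mouse.

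Cell cycle genes were lower at day 21 than in naive mice. Of 42 tested, 20 fell and 1, the cyclin Ccnd1 (1.19; named after its value was seen), rose, with a median log2 fold change of -0.38. The rise of Ccnd1 was lost without day 21 mouse 3 and without naive mouse 2 or 3. Genes of DNA replication carried the smallest p-values. Mcm5, a subunit of the replicative helicase, fell from 57.8, 52.9 and 58.8 CPM to 35.5, 29.5 and 31.3 CPM (-0.81 ± 0.12; adjusted p = 3.1e-05). Mcm2, another subunit, fell from 53.8, 52.7 and 53.2 CPM to 35.4, 23.9 and 28.6 CPM (-0.86 ± 0.12; adjusted p = 2.9e-05). Rrm2, which makes deoxynucleotides, fell from 56, 57.3 and 60.8 CPM to 34.2, 35.7 and 41.6 CPM (-0.64 ± 0.10; adjusted p = 7e-05). For these 3 genes the mice of each group were close and the groups stood apart. Mki67, a proliferation marker expressed through most of the cycle, stood at 74.2, 42 and 53.1 CPM against 25, 58.1 and 96.4 CPM, overlapping groups (0.08 ± 0.58; adjusted p = 0.94). The count of 20 was 13 without day 21 mouse 2, 13 without naive mouse 1, 12 without naive mouse 3 and 10 in the model of the 6 libraries alone.

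The promoters of Mcm5 and Rrm2 are shown because most cell cycle promoters in the table hold a CCAAT box, the site of the factor NF-Y. CCAAT or its reverse ATTGG was found within 250 bases before the start in 26 of 33 list promoters (78.8%) and in 9314 of 27025 promoters (34.5%). The Mcm5 stretch is chr8:75109412-75109508 and the Rrm2 stretch chr12:24708184-24708228, both on the plus strand in GRCm38.p6, and they end 1 and 26 bases before the RefSeq start. Capitals mark the box.

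Mcm5: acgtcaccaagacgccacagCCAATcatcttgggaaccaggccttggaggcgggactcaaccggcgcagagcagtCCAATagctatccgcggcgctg

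Rrm2: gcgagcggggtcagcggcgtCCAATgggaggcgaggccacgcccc

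Cytosolic ribosomal protein genes moved little. Of 36 tested, 4 fell and none rose, where 6.89% of all genes tested fell and 15% rose. The median log2 fold change of the 36 was -0.30. Rps6 fell by 0.41, Rpl4 from 875, 826 and 804 CPM to 676, 619 and 608 CPM (-0.40 ± 0.11; adjusted p = 0.013) and Rpl5 from 708, 717 and 681 CPM to 560, 486 and 431 CPM (-0.51 ± 0.14; adjusted p = 0.014). The count was 9 without day 21 mouse 1, 2 without mouse 2 or without naive mouse 1, and 0 without mouse 3. Under the same test 32 of the 36 fell in WT mice, where the median was -0.56, and no member's response differed between genotypes.

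Transcription factors and signalling regulators of macrophages were tested as a list of 38, of which 12 rose and 2, Id3 (-1.83) and Stat6 (-0.32), named after their values were seen, fell, 7 higher in the model of the 6 libraries alone. The 2 that fell were 0 without day 21 mouse 2 and without naive mouse 2. Csf1r, the receptor for M-CSF, went from 320, 313 and 319 CPM to 622, 899 and 832 CPM (1.31 ± 0.15; adjusted p = 2.3e-06). Maf, a basic leucine zipper factor, went from 0.437, 0.29 and 0.692 CPM to 3.17, 18.4 and 8.79 CPM (4.40 ± 0.63; adjusted p = 3.8e-05). Runx3, a factor shared with lymphocytes, went from 0.069, 0.145 and 0.0231 CPM to 1.81, 7.09 and 2.17 CPM (5.49 ± 0.66; adjusted p = 4.8e-06). In each, mouse 1 lay lowest of the day 21 mice and above all naive mice. Of 32 adhesion and actin genes 14 rose and 5 fell, Lmna (-0.45), Ezr (-0.79), Cdh1 (-0.95), Tagln2 (-0.68) and Coro1a (-0.47), named after their values were seen. Itgam, the integrin chain CD11b, went from 4.87, 4.35 and 4.25 CPM to 23.9, 133 and 41 CPM (3.87 ± 0.48; adjusted p = 6e-06). The 5 that fell were 9 without day 21 mouse 1, 1 without mouse 2 or 3, 3 without naive mouse 3 and 2 in the model of the 6 libraries alone.

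Of 21 eicosanoid and phospholipase genes 6 rose and 1, Alox5 (-0.47, named after its value was seen), fell. The count lower was 4 without day 21 mouse 1. It was 0 without day 21 mouse 3, without any 1 naive mouse and in the model of the 6 libraries alone. Ptgs1, the constitutive cyclooxygenase, went from 14.6, 3.84 and 6.05 CPM to 61.7, 236 and 207 CPM (4.36 ± 0.48; adjusted p = 1.8e-06). Cysltr1, a leukotriene receptor, rose evenly from 2.3, 3.02 and 2.95 CPM to 7.34, 9.96 and 7.94 CPM (1.61 ± 0.18; adjusted p = 1.6e-06). Of 17 coagulation and fibrinolysis genes F13a1, Thbs1, F7 and, named after their values were seen, F3 (6.76) and Procr (1.06) rose and 1 fell. F7, coagulation factor VII, went from 397, 365 and 363 CPM to 421, 609 and 676 CPM (0.60 ± 0.13; adjusted p = 0.0017), a call lost in the model of the 6 libraries alone.

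Some marker lists of other cell types were higher at day 21, that of T and NK cells most of all in mouse 2. Epithelial markers were mixed. The counts cover only markers that passed the filter on low counts, which a gene can pass through the bleomycin groups alone. Tested were 5 of 11 B and plasma cell markers with counts, 10 of 15 neutrophil markers and 8 of 16 fibroblast and endothelial markers. Of 14 eosinophil, mast cell and basophil markers 4 were tested. The shares that rose are thus partly set by the filter and are no test. Of 23 T and NK cell markers 22 rose, and 9 of them, among them Cd8a, Cd8b1 and Icos, had no count in any naive KO mouse. Cd3e, a chain of the T cell receptor complex, went from 0, 0 and 0.0462 CPM to 1.16, 11.9 and 3.41 CPM (8.17 ± 1.04; adjusted p = 1.5e-05). The model of the 6 libraries alone called 12. Of 5 B and plasma cell markers Cd79a, Cd79b and Blk rose (1 without day 21 mouse 2, 0 in the model of the 6 libraries alone). Cd79a, a chain of the B cell receptor, was at 0 CPM in day 21 mouse 1, 2.47 CPM in mouse 2 and 0.517 CPM in mouse 3. The 5 summed to 384, 391 and 420 CPM in naive mice and to 447, 251 and 266 CPM at day 21. Of 10 neutrophil markers 4 rose and 1 fell (2 rose without mouse 2, 1 in the model of the 6 libraries alone), with summed levels of 108 to 148 CPM in naive mice and 164 to 180 CPM at day 21. The 4 were S100a8, S100a9, Il1r2 and, named after its value was seen, Mmp9. Csf3r fell, a call lost without day 21 mouse 2 or 3, without any 1 naive mouse and in the model of the 6 libraries alone. S100a8, a calprotectin subunit, went from 7.31, 6.62 and 3.67 CPM to 13.2, 128 and 52 CPM (3.45 ± 0.54; adjusted p = 9.3e-05), while Retnlg, a granulocyte marker, was at 0 in every KO library of the comparison except day 21 mouse 2 at 0.397 CPM. Of 25 epithelial markers 8 rose and 1 fell (4 rose without day 21 mouse 3 and without naive mouse 1 or 3). The count lower was 0 without day 21 mouse 2 or 3. Summed epithelial markers went down, from 1330, 1520 and 1480 CPM in naive mice to 1230, 654 and 717 CPM at day 21. The mean of log2(CPM + 1) over the list lay above the naive mean, by 0.23, 0.35 and 0.85. Sftpc, the surfactant protein of type 2 cells, named after its value was seen, stood at 0.161, 0 and 0.138 CPM against 0.406, 3.54 and 11.6 CPM. It was highest in mouse 3, the mouse that was also highest for cholesterol synthesis. Of 4 eosinophil, mast cell and basophil markers Kit rose, and of 8 fibroblast and endothelial markers Kdr and Eng rose (4 without day 21 mouse 1). Part of the epithelial list, such as Krt19 and Cdh1, is expressed by alveolar macrophages themselves. The part of these cells in any gene group above was not tested.

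**Figure D4:**
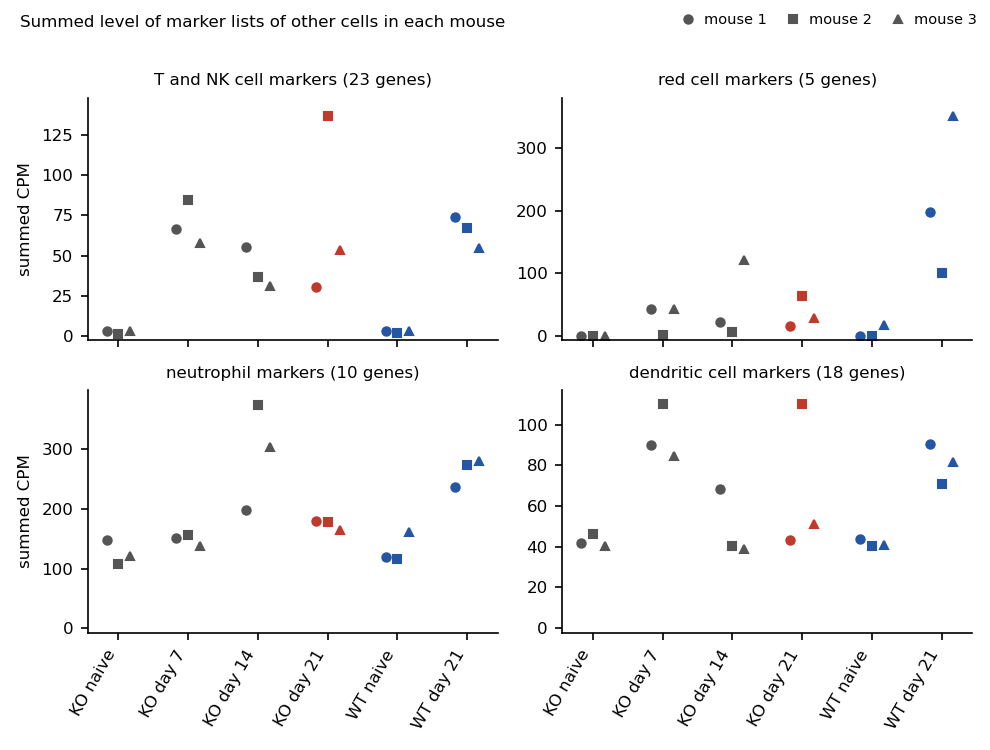
Summed CPM of the tested markers of T and NK cells, red cells, neutrophils and dendritic cells (y axes, from 0) in each mouse of 6 groups (x axis), with symbols for mouse 1, 2 and 3 and day 21 KO mice in red. Day 21 KO mouse 2 is highest of its group for T and NK cells at 137 CPM and for dendritic cells at 110 CPM. The sums of neutrophil markers are alike in the 3 day 21 KO mice at 164 to 180 CPM, while single members such as S100a8 differ widely among these mice.

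Day 21 was next set against the earlier days in KO mice, which shows where the response still moved. Against day 14 no gene passed edgeR's test (0% of genes tested), 724 genes had an unadjusted p below 0.05, limma-voom called none with 725 such genes, and DESeq2 called 24. Without day 21 mouse 3 edgeR called 25 genes, 21 of them lower at day 21. Against day 7, 1880 genes passed (14.9% of genes tested), 904 higher at day 21 (7.16%) and 976 lower (7.73%). Without day 7 mouse 1 the counts were 405 higher and 568 lower, without day 7 mouse 2 570 were higher, and the model of those 6 libraries alone called 138 and 288. Comparisons that share the day 21 mice are not independent of the comparison with naive mice.

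Between days 7 and 21 cell cycle, interferon and chemokine genes came down. At day 21 37 of 42 cell cycle genes were lower than at day 7 and none higher, 26 of 39 interferon genes were lower and none higher, and 9 of 22 chemokines were lower and none higher. Ccl2, which draws monocytes, fell from 101, 94 and 24.4 CPM at day 7 to 0.596, 7.57 and 0.854 CPM at day 21 (-4.63 ± 0.79; adjusted p = 0.00054). Ly6c2 fell from 84.6, 87.4 and 59.2 CPM to the low values given above (-4.76 ± 0.64; adjusted p = 8.1e-05). Spon1, a secreted matrix protein, fell from 4.61, 17.1 and 5.55 CPM to 0.0271, 0.0305 and 0 CPM (-8.69 ± 1.17; adjusted p = 8.1e-05), with no count in the naive mice. The day 7 values of all 3 lay above every day 21 value. Ifit3 stood at 21.4, 32 and 25.9 CPM at day 7, so its day 21 level was lower (-1.54 ± 0.39; adjusted p = 0.011) and still above naive.

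Other genes were higher at day 21 than at day 7. Of the 33 resident macrophage genes 15 were higher and none lower, with a median log2 difference of 0.64. Itgad, an integrin chain of tissue macrophages, stood at 0.572, 0.712 and 1.71 CPM at day 7 and at 19.2, 41.4 and 9.34 CPM at day 21 (4.55 ± 0.59; adjusted p = 4.2e-05), within reach of its naive 12.2, 27 and 22.2 CPM. Pianp, a ligand of a paired inhibitory receptor, climbed without overlap from 0.529, 0.556 and 0.485 CPM when naive to 2.52, 4.72 and 2.87 CPM at day 7 and 21.1, 24 and 28.9 CPM at day 21 (day 21 against day 7 2.87 ± 0.27; adjusted p = 1.6e-06), with 8.94 to 13 CPM between them at day 14. Mfge8 stood at 98.7, 143 and 96.2 CPM at day 7 and was higher at day 21 (2.05 ± 0.32; adjusted p = 0.00025). Spp1 stood at 4020, 7970 and 2400 CPM at day 7, and its day 21 values, which overlap them, did not pass the test (1.26 ± 0.46; adjusted p = 0.069).

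The last comparison asks whether the day 21 response of KO mice differed from that of WT mice, as the difference between the log2 changes from the naive mice of each genotype. In WT mice the same test called 4102 genes (32.5%). The difference between the responses was called for 42 genes (0.332% of genes tested), 28 with a higher response in KO (0.222%) and 14 with a lower one (0.111%). The naive means of the genotypes stood apart in these genes, a difference that was not itself tested. For some, such as Cish, the naive values of the genotypes overlapped. All 28 of the first set had a lower mean in naive KO than in naive WT mice, and 22 of them fell in WT while 15 rose in KO. All 14 of the second set had a higher mean in naive KO than in naive WT mice and rose in WT, while 3 rose and 2 fell in KO. Since the naive means enter the difference, these counts describe the choice and are no separate test. The call count rested on single libraries: it was 0 without WT day 21 mouse 3, 83 without KO day 21 mouse 3, 27 and 22 without KO day 21 mouse 1 or 2, 8 to 27 without a naive KO mouse, 18 and 11 without WT naive mouse 1 or 3, and 26 and 11 without WT day 21 mouse 1 or 2.

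**Figure D5:**
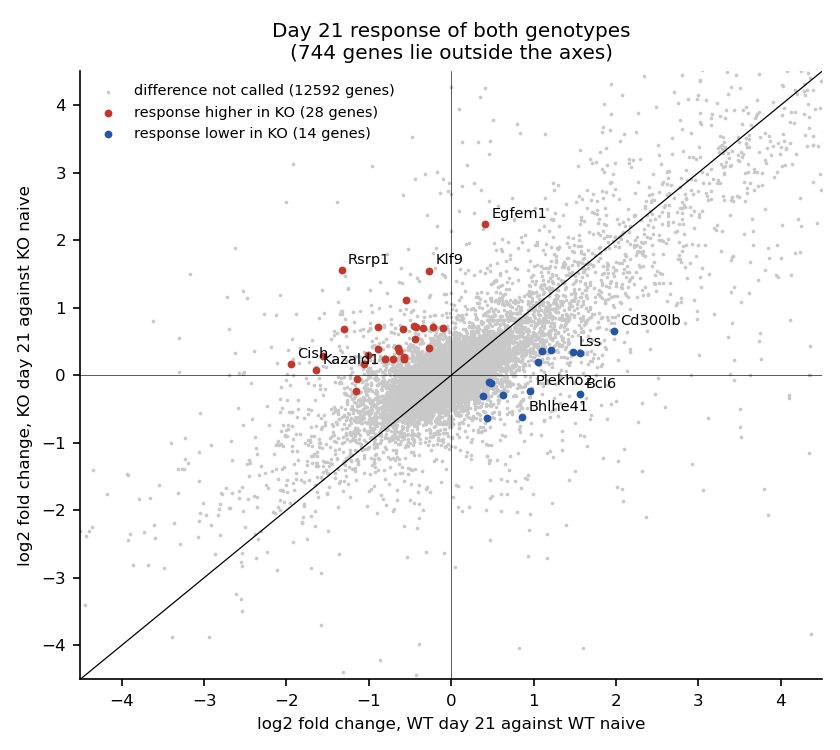
Log2 fold change of day 21 against naive in KO mice (y axis) and in WT mice (x axis), 1 point a gene, with the 42 genes whose responses differed in colour, the line of equal response and 744 genes outside the axes. The coloured genes are moderate in size: 28 lie above the line, mostly where WT fell, and 14 below it, where WT rose.

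Klf9, a factor induced by glucocorticoids, rose in KO from 7.75, 9.03 and 9 CPM to 13.9, 35.8 and 25.7 CPM and in WT stood at 16.7, 16.6 and 16.8 CPM and then 16.5, 13.6 and 11.6 CPM (difference 1.81 ± 0.35; adjusted p = 0.022). All naive KO values lay below WT, and at day 21 mouse 1 lay within the WT range and mice 2 and 3 above it. Egfem1, an EGF-domain gene, went from 2.44, 2.05 and 2.01 CPM to 7.66, 14.6 and 8.48 CPM in KO and from 4.16, 3 and 3.03 CPM to 4.66, 4.16 and 4.7 CPM in WT (difference 1.82 ± 0.38; adjusted p = 0.047). Cish, a feedback inhibitor of STAT5, stood at 16.1, 17.7 and 29.8 CPM and 29.3, 23.1 and 18.9 CPM in KO and fell from 66.4, 27.9 and 45.5 CPM to 13.8, 14.1 and 8.43 CPM in WT (difference 2.11 ± 0.44; adjusted p = 0.046). Its KO groups overlapped and its WT groups did not. Rsrp1, an arginine and serine rich protein, had the largest difference (2.89 ± 0.62; adjusted p = 0.047), rising in KO from 28.2, 22.4 and 53.8 CPM to 131, 49.4 and 127 CPM with overlapping groups, and falling in WT from 169, 231 and 224 CPM to 93.2, 99.6 and 55.4 CPM. The splicing genes Luc7l (difference 1.67 ± 0.25; adjusted p = 0.01) and Rbm39 (1.61 ± 0.28; adjusted p = 0.017) belong to the same set and were picked out after their values were seen. Ccdc117 and Kazald1 complete the 6 highest, with differences of 1.84 and 1.71.

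Bcl6, a repressor that STAT5 signalling is known to hold down, showed the opposite order. It stood at 16.8, 14 and 13.8 CPM in naive KO mice and 14, 7.36 and 15.2 CPM at day 21, while in WT it rose from 7.77, 8.72 and 6.57 CPM to 18, 23.3 and 26.5 CPM (difference -1.84 ± 0.30; adjusted p = 0.01). Cd300lb, an activating receptor, reached 48.7, 28.9 and 52 CPM in KO and 76.6, 77.7 and 78.1 CPM in WT from naive levels of 24.9, 29.4 and 28.2 CPM and 22.8, 18.2 and 18.1 CPM (difference -1.33 ± 0.25; adjusted p = 0.022). Lss, lanosterol synthase, stood at 33.4, 27.1 and 31.8 CPM and 31.9, 35.9 and 49.4 CPM in KO and rose from 22.7, 27.1 and 25.7 CPM to 66.5, 62.6 and 80.6 CPM in WT (difference -1.13 ± 0.24; adjusted p = 0.047). It was the one cholesterol synthesis gene whose response was called different, and over the list of 25 the median log2 change was 0.64 in KO and 1.38 in WT. Bhlhe41, a factor of resident alveolar macrophages, Fhl3, an adaptor protein, and Plekho2, a signalling protein, differed by -1.48, -1.24 and -1.19. For Plekho2 the KO values were 164, 176 and 165 CPM when naive and 134, 160 and 135 CPM at day 21, and WT rose from 74.1, 106 and 86.9 CPM to 164, 176 and 177 CPM. None of the genes with the largest rises in KO mice, such as Spp1 (difference -0.35 ± 0.64; adjusted p = 0.91), Fn1 (1.27 ± 0.48; adjusted p = 0.3) or Arg1 (0.09 ± 1.72; adjusted p = 1), passed this test, which does not show that they responded alike.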

How the data were processed

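Bulk RNA of lavage macrophages was sequenced with paired reads of 150 bases, 1 library per mouse and 2 runs per library, per the labels' protocols. The authors deposited 1 table of expected counts, unscaled and with 3.11% to 3.85% of values not whole, with 1 column per mouse; the aligner, the counting tool, the use of strand and whether a column holds both runs stand in none of the sources. The submitters' processing notes name the build mm10, bcl2fastq, DESeq2 1.42.0 and limma 3.58.1, without roles. The table also holds 24 columns of samples outside this series' labels, which were not used.

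Counts were rounded to whole numbers and fitted in edgeR 4.0.16 (R 4.3.3) with 1 mean for each of the 8 groups (24 libraries, 16 residual degrees of freedom), TMM scaling and filterByExpr (minimum count 10, minimum total 15), which kept 12634 of 24411 genes. Calls are quasi-likelihood F tests with Benjamini-Hochberg adjustment over all genes tested at 0.05. Standard errors are the fold change divided by the square root of F. CPM is scaled by TMM. Values are given per mouse, so the spread between the 3 mice is seen directly, and totals of 24877049 to 47457085 counts set the precision. A gene with no naive count is given against a floor of 3 counts over the group, which covers counting error only. List levels are means of log2(CPM + 1). The fit was tested on simulated data in which each gene had the same spread in all groups. That setting does not cover the wider spread of the day 21 mice.

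Mice with the same number in different groups did not vary together (r of -0.2, 0.01 and -0.05 between naive and day 21), so the numbers were not treated as pairs. The alternatives were DESeq2 1.42.0, limma-voom (limma 3.58.1), RLE scaling, no filter on low counts, the mouse number as a block, thinned counts, only the compared groups, and each library left out.

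Named genes are the 12 highest and 12 lowest called changes of genes with a standard symbol, no overlap between groups and 5 CPM or more on average where higher, the members of each described list with the smallest p (up to 4), a panel of 32 genes, and 6 on each side for the other comparisons. Genes outside this rule were named after their values were seen. The members, the 45 lists and the tests were chosen with earlier results of these data known. Promoters and their positions are from RefSeq, GRCm38.p6, taking the first entry for a symbol. Some genes are not reported here.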

Additional observations from a re-analysis of the deposited data

Results flagged for a closer look

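The day 21 response differed between KO and WT mice, by the test of the difference itself in the model of all groups, for 42 genes. With a higher response in KO the 6 named genes differed by 2.89 (Rsrp1), 2.11 (Cish), 1.84 (Ccdc117), 1.82 (Egfem1), 1.81 (Klf9) and 1.71 (Kazald1) on the log2 scale. With a lower response in KO they differed by -1.84 (Bcl6), -1.48 (Bhlhe41), -1.33 (Cd300lb), -1.24 (Fhl3), -1.19 (Plekho2) and -1.13 (Lss). The naive means of the genotypes were ordered in the opposite direction in each of the 42, an order that enters the difference and was not itself tested. The median log2 ratio of KO to WT naive means was -0.83 for the 28 genes and 0.48 for the 14, and the median at day 21 was 0.36 and -0.45.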

How the results depend on the processing

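No called change of a gene named by the rule reversed under the alternatives run. The balance of a list could turn: without day 21 mouse 1 the resident macrophage list had 5 higher and 9 lower (4 and 1 with it), and without mouse 2 the iron and antioxidant list had 1 higher and 6 lower (5 and 4 with it). For KO day 21 against naive, edgeR called 2765 genes, 1895 higher and 870 lower. DESeq2 called 3195, limma-voom 2702, RLE scaling 2763, no filter 2511 and thinned counts 2636; only the compared groups gave 1391 (1021 higher, 370 lower; fewer degrees of freedom). With the mouse number as a replicate block 2727 were called, 2615 of them shared, and the numbers did not pair the mice. Leaving out 1 library gave 1735 to 3804 calls, 1354 to 2281 higher and 377 to 1523 lower. Of 191 called genes named by the rule, DESeq2, RLE scaling, the block and no filter kept 191. Limma-voom kept 164, thinned counts 187, and the compared groups alone 147 of 180 tested. Genes named after their values were seen are not among the 191. The rule picks largely by small p or large change, which favours keeping a call.

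For the difference between the KO and WT responses (42, 28 and 14), DESeq2 gave 262, 151 and 111, the replicate block 28, 17 and 11, and the compared groups alone 22, 15 and 7. Leaving out 1 library gave 0 to 83, with 0 to 39 higher and 0 to 44 lower. Against day 14 (0), DESeq2 gave 24 (13 higher, 11 lower), the block and the compared groups alone 0, and leaving out 1 library 0 to 25, with 0 to 4 higher and 0 to 21 lower. Against day 7 (1880), the block gave 1852, the compared groups alone 426 (138 and 288), and leaving out 1 library 973 to 1932, with 405 to 920 higher and 568 to 1012 lower. The causes were not tested. With 3 mice a group and an uneven day 21 group, small changes, and falls above all, cannot be fixed well, and genes near 0 in naive mice have wide errors.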
